A study of Mus musculus with 9 samples.

Results

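The genes described here are 5 members of the C/EBP family, Cebpa, Cebpb, Cebpd, Cebpg and Ddit3, and the nuclear receptor gene Pparg. They were picked by gene symbol, 6 of the 22180 genes that the arrays name, and each was measured by 1 probe set. The cells were 3T3-L1 pre-adipocytes, a mouse fibroblast line that becomes adipocytes when given a hormone cocktail, grown to confluence and held for a further 48 h of growth arrest. There were 3 groups of 3 single-colour arrays. The first had received an siRNA against CD24, a glycosylated surface protein encoded by Cd24a, and then 0.5 mM IBMX (a phosphodiesterase inhibitor that raises cAMP) with 1 µM dexamethasone (Dex, a synthetic glucocorticoid) for 6 h. The second had received a scrambled control siRNA and the same IBMX/Dex, and the third was a vehicle control. The labels do not say which siRNA, if any, the vehicle cells received, so effects of IBMX/Dex and of transfection cannot be told apart in the comparisons with vehicle. Nothing in the labels states that replicates came from different cultures; p-values then describe only the spread between these samples, which may be technical.

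C/EBP proteins are transcription factors of the basic leucine zipper class that bind DNA as dimers. In the textbook order of adipocyte formation C/EBPβ and C/EBPδ appear within hours of the cocktail and later switch on C/EBPα and PPARγ, which maintain each other and drive the genes of the fat cell. C/EBPβ is classically tied to the cAMP arm and C/EBPδ to the glucocorticoid arm. C/EBPγ and CHOP, the product of Ddit3, pair with the others and can hold them back; CHOP is also the end point of the unfolded protein response.

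All values are log2 expression on the scale of the deposited arrays, where 1 unit is a 2-fold difference. Genes entered the tests when at least 3 of their 9 values were 6.51 or more, which is the median over the whole table. Array medians lay between 6.47 and 6.56. Cebpb, Cebpd, Cebpg, Ddit3 and Pparg were above the filter level on all 9 arrays. Cebpa was below it on all 9 and is described without a call. Of 13 measured markers of pre-adipocytes and fibroblasts 12 were above the filter, the brightest being Vim with a mean of 13.49. Of 5 markers of mature adipocytes 1 was above it, Fabp4 (mean 9.60). So were 4 of 5 markers of skeletal muscle (brightest Des, mean 7.61) and 5 of 8 of myeloid cells (brightest Cd14, mean 8.61). The counts alone therefore do not identify the cells. Arrays of the same replicate number deviated together from their group means, so differences are given for each number, and each fit was run with group means alone and again with replicate number as a blocking term. The siRNA target Cd24a was read from its brighter probe set. It was 1.04, 1.57 and 0.10 log2 units lower with CD24 siRNA than with scrambled siRNA for numbers 1, 2 and 3. By this probe set the array labelled CD24 siRNA replicate 3 did not show the knockdown that its label names. That array is included below unless said otherwise. Group differences of the dimmer probe set (mean 7.79) are not given here. Cd24a was above vehicle in both treated groups, 4.42-fold with scrambled siRNA and 2.37-fold with CD24 siRNA (limma adjusted p = 0.0205 and 0.124 by group means). The mean with CD24 siRNA thus stayed above the vehicle level.

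Sequences just before the start site are shown for Cebpb and Ddit3, the members that differed most with IBMX/Dex in opposite directions and have an entry in the sequence table (RefSeq, build GRCm38.p6, plus strand, 250 bases). Capitals mark the core of the cAMP response element, TGACG on either strand, and the CCAAT box, CCAAT on either strand.
Cebpb (chr2:167688665-167688914): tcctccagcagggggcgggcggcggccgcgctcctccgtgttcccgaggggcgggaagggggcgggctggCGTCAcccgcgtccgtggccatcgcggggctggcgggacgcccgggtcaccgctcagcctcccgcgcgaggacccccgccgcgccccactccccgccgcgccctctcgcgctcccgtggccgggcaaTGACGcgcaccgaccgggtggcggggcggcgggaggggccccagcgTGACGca
Ddit3 (chr10:127290543-127290792): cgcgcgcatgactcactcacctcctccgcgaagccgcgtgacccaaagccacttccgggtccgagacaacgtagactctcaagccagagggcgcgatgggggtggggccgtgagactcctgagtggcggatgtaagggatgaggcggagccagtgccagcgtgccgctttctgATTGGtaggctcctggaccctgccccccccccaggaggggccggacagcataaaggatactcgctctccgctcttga
The Cebpb window held 3 TGACG cores, the first of them on the minus strand, beginning 180, 53 and 7 bases before the annotated start, and no CCAAT box. Of 32851 windows of this length in the table, 17.8% held at least 1 such core and 0.688% held 3 or more. The Ddit3 window held no TGACG core and 1 CCAAT box on the minus strand, 77 bases before the start; 33.8% of windows hold a CCAAT box. None of the 7 windows found for 5 of the members (3 for Pparg, 1 each for Cebpa, Cebpb, Cebpg and Ddit3) held the whole element TGACGTCA (1.55% of windows), the glucocorticoid response element, AGAACA and TGTTCT set 3 bases apart (0.00913%), the C/EBP palindrome TTGCGCAA (0.164%) or the composite TGATGCAA (0.791%) on either strand. A match or its absence describes these letters in these windows and no more.

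With scrambled siRNA and 6 h of IBMX/Dex, Cebpb was higher and Cebpd and Ddit3 were lower than with vehicle, each by between 1.46-fold and 1.70-fold, and Pparg was 1.25-fold higher. These changes passed for Cebpb, Cebpd and Ddit3 only once the replicate number was taken into account. With 1 mean per group none of the 5 tested members passed in limma, where 6.94% of all 12630 genes did (3.33% as higher and 3.6% as lower). With the block 1 member rose and 2 fell, where 23.3% of all genes passed (11.9% as higher and 11.4% as lower). The groups overlapped for all 5, while they did not for 25.2% of all genes. Of the same-numbered differences, all 3 were positive for 2 members (27.6% of all genes) and all 3 negative for 2 (24.3%), together 4 of 5 against 51.9% of all genes.

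Cebpb, the early C/EBP gene of the cAMP arm, stood at 11.06, 10.06 and 10.27 with scrambled siRNA and IBMX/Dex (replicate numbers 1, 2 and 3), against 10.18, 8.80 and 10.11 with vehicle. Vehicle replicate 2 was the lowest of these arrays by more than 1 log2 unit, and the groups overlapped. The same-numbered differences were 0.88, 1.26 and 0.17, or 1.84-fold, 2.39-fold and 1.12-fold, so that number 3 showed little of the increase seen in the others. The mean difference was 0.77 (1.70-fold; 95% interval with the block 1.23-fold to 2.35-fold; limma adjusted p of 0.305 by group means and 0.0259 with the block). The blocked call rested on single arrays: the adjusted p was 0.106 without scrambled replicate 1, 0.104 without scrambled replicate 2, 0.0961 without vehicle replicate 1 and 0.0819 without vehicle replicate 2 (log2 difference 0.49). Of the fits that left out a whole replicate number, the one without number 3 passed (log2 difference 1.07) and those without number 1 (0.71) or 2 (0.52) did not. It also did not pass when no filter was applied to dim genes (adjusted p = 0.0580).

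Cebpd, the early C/EBP gene of the glucocorticoid arm, stood at 7.84, 7.16 and 7.34 with scrambled siRNA and IBMX/Dex, against 8.15, 7.57 and 8.25 with vehicle. Within every number the treated array was the lower one, although scrambled replicate 1 lay above vehicle replicate 2. The differences were -0.32, -0.41 and -0.91, with a mean of -0.54 (1.46-fold lower; adjusted p = 0.215, with the block 0.0117). The blocked call was lost without scrambled replicate 3 (log2 difference -0.40, adjusted p = 0.0767) and held without any other 1 array. It was also lost when all arrays of number 3 were left out (log2 difference -0.36, adjusted p = 0.0918).

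Cebpa, whose product acts later in the programme, lay below the filter in every group: at 6.48, 6.10 and 6.32 with scrambled siRNA and IBMX/Dex, against 6.35, 6.05 and 5.71 with vehicle. In a fit without the filter its difference was 0.26 (95% interval -0.21 to 0.73, adjusted p = 0.618, with the block 0.359). No change was detectable at this brightness.

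Pparg, by contrast, was already well above the filter on the vehicle arrays. Its values were 10.48, 10.64 and 9.79 with scrambled siRNA and IBMX/Dex, against 10.06, 10.32 and 9.57 with vehicle. Every treated array was above the vehicle array of its number, while the groups overlapped, with both number 3 arrays low. The differences of 0.42, 0.32 and 0.22 had a mean of 0.32 (1.25-fold; adjusted p = 0.564, with the block 0.0768), which did not pass. The single probe set does not separate transcripts from the 3 start sites that the sequence table lists for this gene.

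Cebpg, which encodes a short C/EBP protein that pairs with the other members, gave 8.23, 8.38 and 8.14 with scrambled siRNA and IBMX/Dex, against 8.47, 8.23 and 8.22 with vehicle. The differences had mixed signs (-0.25, 0.15 and -0.08), and the mean of -0.06 had a 95% interval of -0.29 to 0.18 with the block (adjusted p = 0.843, with the block 0.739). On the linear scale that interval runs from 0.82-fold to 1.13-fold. Scrambled replicate 1 and vehicle replicate 2 had the same deposited value.

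Ddit3 stood at 9.31, 8.33 and 8.34 with scrambled siRNA and IBMX/Dex, against 9.85, 8.97 and 8.78 with vehicle. The number 1 arrays were the highest in both groups, and the groups overlapped, but the 3 differences of -0.54, -0.64 and -0.44 were close to each other. Their mean was -0.54 (1.46-fold lower; adjusted p = 0.432, with the block 0.00625). The blocked call held on leaving out each of the 9 arrays in turn (log2 difference between -0.60 and -0.45). It was lost when all arrays of number 1 were left out, at a log2 difference of -0.54 (adjusted p = 0.0552). The RNA came from whole cultures, so fewer cells expressing a gene and less RNA of it per cell cannot be told apart in this or the other results.

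**Figure D1:**
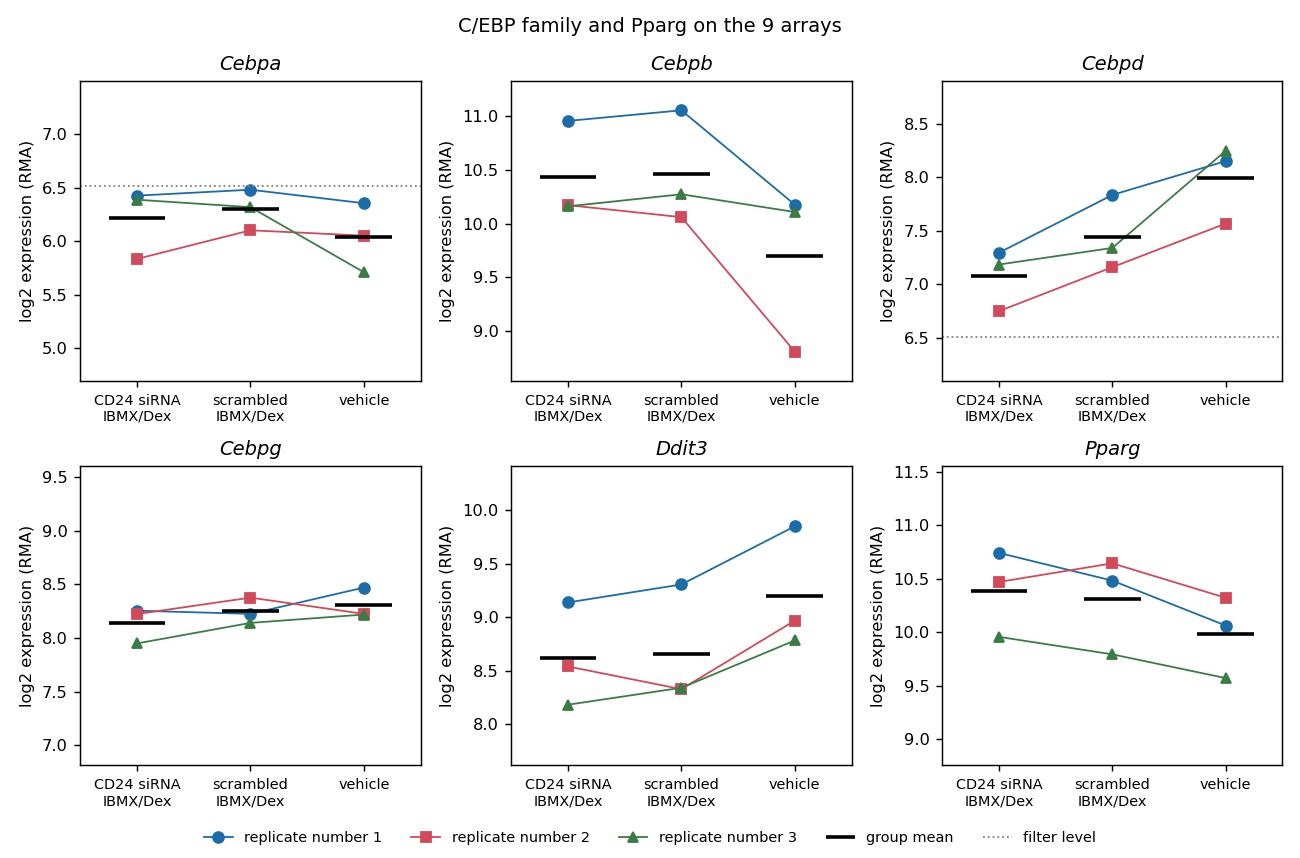
Log2 expression (y axis, the same span in every panel) of the 6 genes on each array for CD24 siRNA with IBMX/Dex, scrambled siRNA with IBMX/Dex and vehicle (x axis); lines join arrays of the same replicate number, black bars are group means and the dotted line is the filter level of 6.51. The Ddit3 lines run nearly parallel, with number 1 above the others in every group, while Cebpb in vehicle replicate 2 lies at 8.80, far below the other vehicle arrays.

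In cells given the CD24 siRNA the same members differed from vehicle in the same directions. These comparisons share the vehicle arrays, so the likeness is not an independent finding. With 1 mean per group none of the 5 tested members passed, where 6.65% of all genes did (2.92% as higher and 3.73% as lower). With the block Cebpb and Pparg rose and Cebpd and Ddit3 fell, where 22.4% of all genes passed (10.4% as higher and 12.1% as lower). All 3 same-numbered differences had one sign for 5 of 5 members, 2 upward and 3 downward, as they did for 51.3% of all genes (25.9% upward and 25.4% downward). Cebpg is counted as downward although its difference for number 2 was only -0.002.

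Cebpd had the clearest difference. It stood at 7.30, 6.75 and 7.19 with CD24 siRNA and IBMX/Dex, below all of the vehicle arrays at 8.15, 7.57 and 8.25. It was the 1 tested member whose groups did not overlap in this comparison, as was the case for 25.8% of all genes. The differences were -0.86, -0.82 and -1.06 and the mean -0.91 (1.88-fold lower; adjusted p = 0.0542, with the block 0.00107). The blocked call held without each single array (log2 difference between -0.98 and -0.78) and without each replicate number (-0.96 to -0.84).

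Cebpb was at 10.96, 10.17 and 10.16 with CD24 siRNA and IBMX/Dex, against 10.18, 8.80 and 10.11 with vehicle. As with scrambled siRNA the difference was largest for number 2 and small for number 3 (0.78, 1.37 and 0.05). The mean of 0.73 was 1.66-fold (adjusted p = 0.335, with the block 0.0321). The blocked call was lost without CD24 siRNA replicate 1 or 2, scrambled replicate 1 or vehicle replicate 1 or 2 (adjusted p between 0.0541 and 0.142), and without a filter (adjusted p = 0.0721).

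Ddit3 was at 9.14, 8.54 and 8.18 with CD24 siRNA and IBMX/Dex, against 9.85, 8.97 and 8.78 with vehicle. The differences of -0.71, -0.43 and -0.60 averaged -0.58 (1.49-fold lower; adjusted p = 0.404, with the block 0.00471). The blocked call held without each single array and was lost without all arrays of number 1 (adjusted p = 0.0647).

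Pparg was at 10.74, 10.47 and 9.96 with CD24 siRNA and IBMX/Dex, against 10.06, 10.32 and 9.57 with vehicle. The treated array was the higher one in each number, by 0.68, 0.15 and 0.39, a mean of 0.40 (1.32-fold; adjusted p = 0.461, with the block 0.0352). This blocked call passed in 3 of the 9 fits that left out 1 array and missed the threshold without a filter (adjusted p = 0.0720) and with arrays centred on their medians (adjusted p = 0.0532). Cebpg differed by -0.22, -0.00 and -0.27 and Cebpa by 0.07, -0.22 and 0.68, and neither mean passed (adjusted p = 0.304 and 0.575 with the block).

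**Figure D2:**
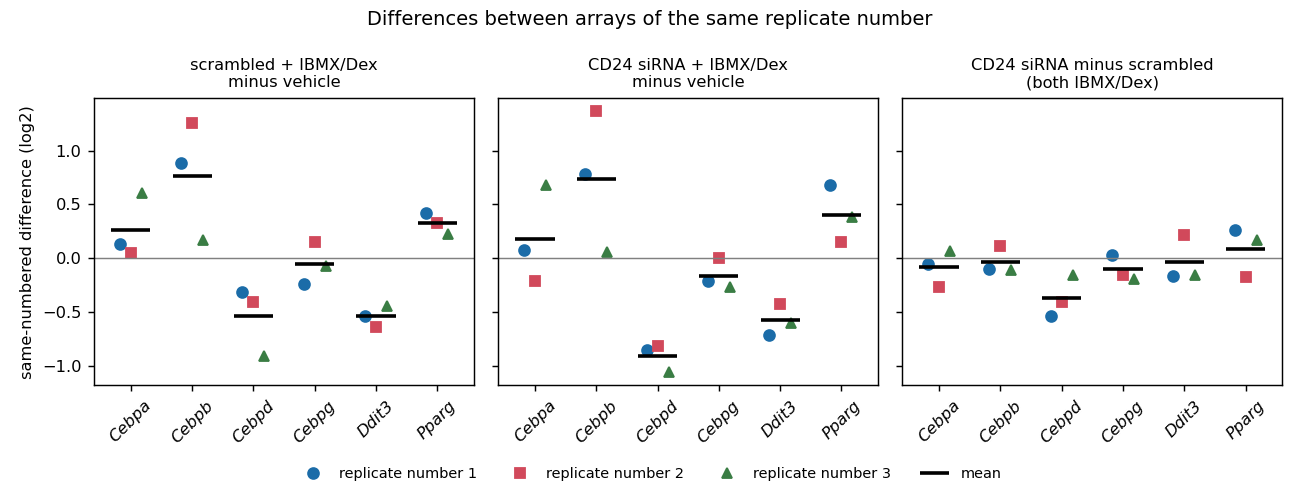
Differences in log2 expression (y axis) between arrays of the same replicate number for each gene (x axis), with scrambled siRNA and IBMX/Dex minus vehicle, CD24 siRNA and IBMX/Dex minus vehicle, and CD24 siRNA minus scrambled siRNA; symbols are the 3 numbers and bars their means. The Ddit3 differences from vehicle lie between -0.71 and -0.43 in all 6 cases, whereas those of Cebpb spread from 0.05 to 1.37. Both treated groups are set against the same 3 vehicle arrays, so these 6 differences are not independent.

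The study's own question was whether lowering CD24 changes the response to IBMX/Dex, and this was tested by CD24 siRNA against scrambled siRNA within IBMX/Dex. No member passed, and neither did any of the 12630 genes in limma with or without the block (0% passed; 30 genes had an unadjusted p under 0.05 without the block, 0.238% of those tested, and 219 with it, 1.73%). The siRNA target Cd24a was itself among the genes that did not pass, at a mean difference of -0.90 (1.87-fold lower). The absence of a call in this comparison therefore does not show that a gene was unchanged. Cebpb was at 10.96, 10.17 and 10.16 with CD24 siRNA, against 11.06, 10.06 and 10.27 with scrambled siRNA. The mean difference was -0.03, with a 95% interval of 0.71-fold to 1.35-fold in the fit with the block. For Ddit3 (mean difference -0.04) the interval ran from 0.83-fold to 1.15-fold, for Pparg (0.08) from 0.88-fold to 1.27-fold and for Cebpg (-0.11) from 0.79-fold to 1.09-fold. Differences inside these intervals remain possible.

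Cebpd again stood at 7.30, 6.75 and 7.19 with CD24 siRNA, against 7.84, 7.16 and 7.34 with scrambled siRNA. It was the 1 tested member with 3 same-numbered differences of one sign, -0.54, -0.41 and -0.15, as was the case for 21.9% of all genes (15.7% with 3 negative ones). Cd24a itself differed by -1.04, -1.57 and -0.10 for numbers 1, 2 and 3, and a relation between the genes was not tested. The smallest of the Cebpd differences was that of number 3. The mean of -0.37 (1.29-fold lower; blocked interval 0.64-fold to 0.94-fold) did not pass (limma adjusted p = 1 in both fits), and the groups overlapped, as they did for every tested member; they did not for 2.41% of all genes. No tested member had 3 positive differences, which 6.15% of all genes had. When CD24 siRNA replicate 3 was left out, the Cebpd difference was -0.38 with the block and -0.42 without it (adjusted p = 1.00 and 1).

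**Figure D3:**
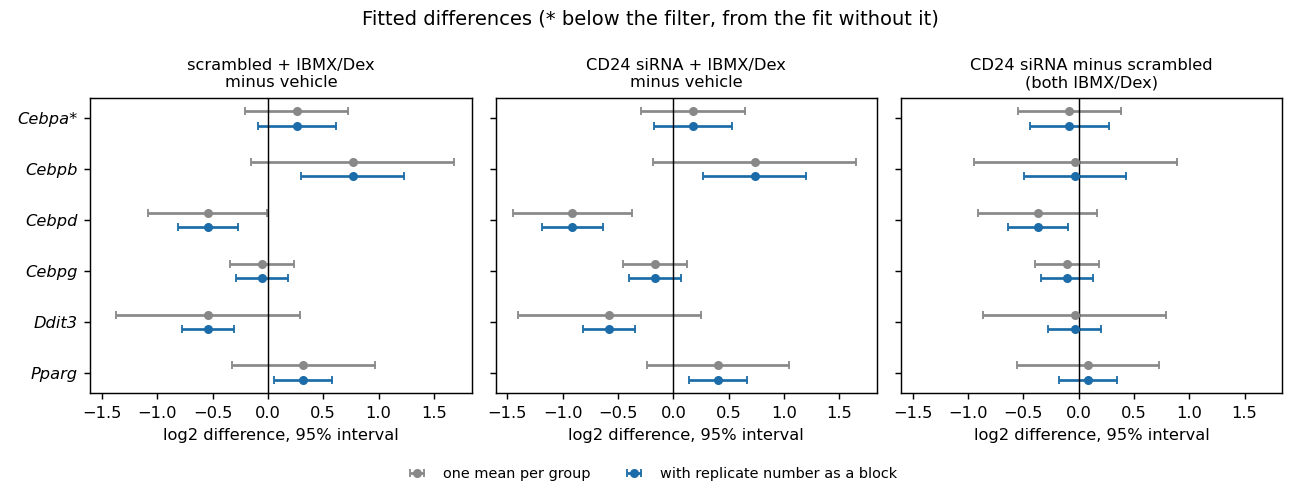
Fitted log2 differences (x axis) with 95% intervals for each gene (y axis) in the 3 comparisons, from a fit with 1 mean per group (grey) and from one with the replicate number as a block (blue). For Ddit3 against vehicle the interval narrows most, from -1.37 to 0.29 without the block to -0.78 to -0.31 with it (scrambled siRNA); Cebpa, marked with a star, lies below the filter.

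The members differed in how much of their spread lay between replicate numbers, which the group labels do not account for. For Pparg 71.9% of the sum of squares over the 9 arrays lay between numbers and 21.2% between groups, and for Ddit3 the shares were 71.3% and 26.6%. The median over all tested genes was 36.2% between numbers and 28.3% between groups, and 1 gene in 4 had over 59.0% between numbers. Cebpb had 50.4% between numbers, 34.3% between groups and 15.3% left over. Cebpd was the member with more spread between groups, 65.0%, than between numbers, 29.6%. Number 1 had the highest mean for 5 of the 6 members and number 2 for Pparg. Cebpb (10.73, 9.68 and 10.18 for numbers 1, 2 and 3), Cebpd (7.76, 7.16 and 7.59) and Cebpa (6.42, 6.00 and 6.14) were lowest in number 2. Ddit3 (9.43, 8.61 and 8.44), Cebpg (8.32, 8.28 and 8.10) and Pparg (10.43, 10.48 and 9.78) were lowest in number 3.

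**Figure D4:**
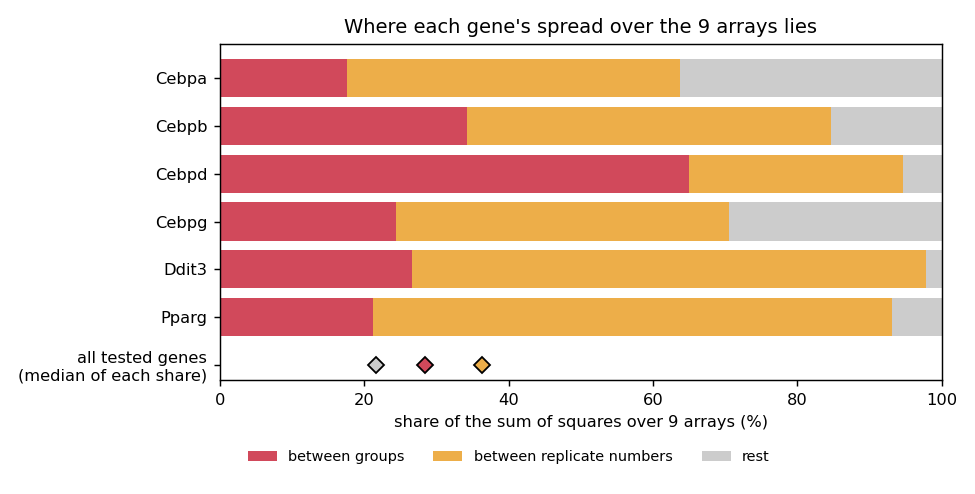
Share of each gene's sum of squares over the 9 arrays (x axis, percent) that lies between the 3 groups, between the 3 replicate numbers and in the rest; diamonds mark the median of each share over all tested genes. Pparg and Ddit3 have the longest share between numbers, 71.9% and 71.3%, and Cebpd the longest share between groups, 65.0%.

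The tested genes whose levels followed a member most closely over the 9 arrays were found by Pearson correlation, as a description in which all points share the groups and the replicate numbers. For Cebpb they were Tmem18 (r = 0.990), the non-coding Snhg10 (r = 0.989) and the adhesion molecule gene Nectin1 (r = 0.987), and the most opposite was Mir1946a (r = -0.976). For Cebpd they were the sulfatase gene Arsa (r = 0.973), Acvrl1, which encodes a receptor of the TGF-beta family (r = 0.973), and the matrix protein gene Matn2 (r = 0.971), with the RNA polymerase subunit gene Polr1c at the other end (r = -0.970). Ddit3 was followed by the mitochondrial ribosome gene Mrps9 (r = 0.985), Rtf2 (r = 0.984) and the calponin gene Cnn2 (r = 0.981) and opposed by Zfp266 (r = -0.980). Pparg was followed by Atp5a1, an ATP synthase subunit gene (r = 0.978), Lrp12 (r = 0.967) and Adgrl2 (r = 0.948), with Kank3 opposite (r = -0.933), and Cebpg by Msantd3 (r = 0.966), the kinase gene Stk24 (r = 0.951) and Tcof1 (r = 0.936), with Jazf1 opposite (r = -0.957). No other member was among them.

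The genes around this pathway were read from lists, first those said to act upstream. For scrambled siRNA against vehicle, 3.33% of all tested genes rose and 3.6% fell by group means. With the block these shares were 11.9% and 11.4%. Of 13 tested genes that induce Cebpb, Cebpd, Cebpa or Pparg in pre-adipocytes, 1 rose and 4 fell with scrambled siRNA and IBMX/Dex (2 and 5 with the block), and the list median was -0.24 beside 0.02 for all tested genes. Klf5, a Krüppel-like factor that acts on the Pparg promoter, stood at 10.45, 10.59 and 10.63 with scrambled siRNA and IBMX/Dex, against 9.67, 8.99 and 9.55 with vehicle (2.23-fold, adjusted p = 0.00628). Nr3c1, the gene of the glucocorticoid receptor, was at 8.49, 8.76 and 8.41, against 9.68, 9.62 and 9.89 with vehicle (2.27-fold lower, adjusted p = 0.00135). The groups did not overlap for either gene, and both calls held without each single array. Stat5a (1.94-fold lower, adjusted p = 0.00485) and Stat5b (2.20-fold lower, 0.0210) fell as well; the call of Stat5b was lost without scrambled replicate 1 or 3 or vehicle replicate 1 or 3. The other gene counted as lower, Zfp467, entered the tests only through the vehicle arrays (6.73, 6.97 and 7.84): its scrambled arrays (6.05, 6.14 and 6.37) and CD24 siRNA arrays (6.39, 6.34 and 6.25) were all below the filter, and no fold is given; its call held in 2 of 9 fits without 1 array. Stat3, Klf4 and Egr2, other factors that act on Cebpb or Cebpd, differed by -0.24, 0.23 and -0.07 and did not pass.

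Of 17 tested genes of other basic leucine zipper factors 3 rose and none fell (4 rose with the block; list median 0.06). Nfil3, a repressor whose zipper is close to that of the C/EBP proteins, was at 10.45, 10.11 and 10.59 with scrambled siRNA and IBMX/Dex, against 8.69, 8.34 and 8.95 with vehicle (3.31-fold, adjusted p = 0.00145, held without each single array). Fosl2, an AP-1 subunit gene (1.85-fold, adjusted p = 0.0125), and Crem, a cAMP-responsive factor gene (adjusted p = 0.0128), rose too in limma. Both calls were lost without scrambled replicate 3. The Crem vehicle arrays (6.51, 6.43 and 6.53) lay at the filter level of 6.51. Crem thus entered the tests through the treated arrays, and no fold is given. For Crem 3 of the 6 treated arrays had the same deposited value, 6.97. Fos was at 7.14, 6.65 and 6.88 with scrambled siRNA and IBMX/Dex, against 6.26, 6.17 and 6.54 with vehicle. Vehicle replicates 1 and 2 were below the filter of 6.51. Fos thus entered the tests through the treated arrays, and no fold is given. It passed as higher only with the block (limma adjusted p = 0.137 by group means, 0.0176 with the block). Of the 3 tested partners and relatives of PPARγ, Ppard, Rxra and Rxrb, none passed in either fit; Rxra, the gene of the usual dimer partner, differed by -0.01. The other 3 measured genes of this list were below the filter.

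A list of genes whose products hold back C/EBP or PPARγ, and of the Id genes, moved in both directions. Of 19 tested, 2 rose and 1 fell (7 rose and 3 fell with the block, list median 0.12). Id2, an inhibitor of helix-loop-helix factors, stood at 11.62, 11.42 and 11.58 with scrambled siRNA and IBMX/Dex, against 9.95, 9.05 and 6.47 with vehicle. It rose by 3.05 log2 units (8.30-fold, adjusted p = 0.0342), a size that rests on the uneven vehicle arrays: leaving out vehicle replicate 3 gave 2.04 and leaving out vehicle replicate 1 gave 3.78. The call held only in these 2 of the 9 fits that left out 1 array. Tsc22d3, a glucocorticoid-induced gene whose product blocks Pparg transcription, rose 2.19-fold (0.0334), and Klf3 fell 1.47-fold (0.0224); these calls held in 3 and 5 of the 9 such fits. Id1 was 2.26-fold higher (adjusted p = 0.0928, with the block 0.00104). Of 8 tested PPARγ coactivator genes Ncoa2 fell 1.39-fold (adjusted p = 0.0312, held in 2 of 9 fits without 1 array), 4 fell with the block and none rose. Of 5 tested kinase genes Cdk5, whose product phosphorylates PPARγ, fell 1.53-fold (0.0483, held in 1 of 9), while Gsk3b and Cdk2, whose products act on C/EBPβ, differed by -0.09 and 0.12.

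**Figure D5:**
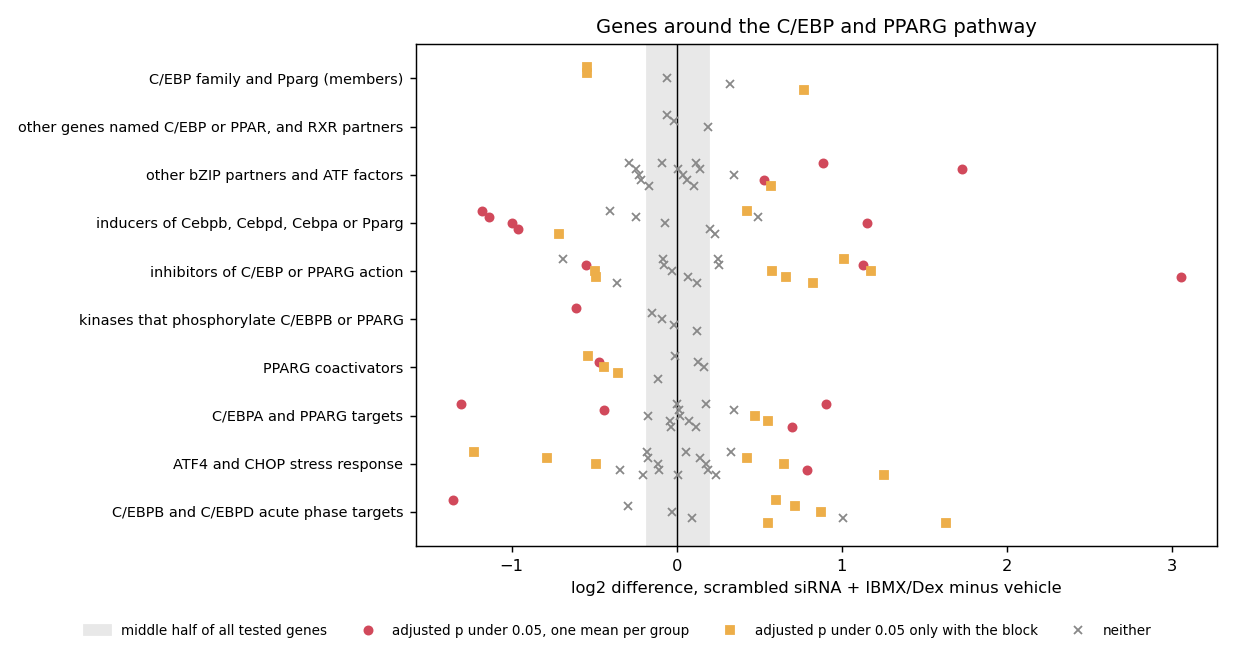
Log2 difference of each tested gene (x axis, scrambled siRNA with IBMX/Dex minus vehicle) in the 10 lists (y axis); red circles passed with 1 mean per group, orange squares only with the block and grey crosses in neither, and the grey band spans the 25th to 75th percentile of all tested genes. The 5 tested members lie between -0.54 and 0.77, inside the range of the surrounding lists, where Id2 reaches 3.05 (2.04 without vehicle replicate 3) and Ccl2 -1.36.

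Downstream genes were measured next. Of 16 tested genes that C/EBPα and PPARγ drive in mature adipocytes 2 rose and 2 fell (4 and 2 with the block; list median 0.05), and another 7 were below the filter. Angptl4, an inhibitor of lipoprotein lipase and a PPAR target, was at 9.19, 8.42 and 9.01 with scrambled siRNA and IBMX/Dex, against 10.37, 10.18 and 10.00 with vehicle (2.48-fold lower, adjusted p = 0.00699, held without each single array). Agpat2, an enzyme gene of phospholipid and triglyceride synthesis, fell 1.36-fold (adjusted p = 0.0403), whereas Fasn, the fatty acid synthase gene, rose 1.62-fold (0.0294) and Scd1, a desaturase gene, 1.87-fold (0.0442). Leaving out 1 array kept the calls of Agpat2, Fasn and Scd1 in 1, 4 and 1 of 9 fits. Fabp4, the fatty acid binding protein gene of adipocytes, differed by 0.35 and did not pass.

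Around Ddit3, 20 genes of the ATF4 and CHOP stress response and of the wider unfolded protein response were tested. Of these 1 rose and none fell (4 rose and 3 fell with the block, list median 0.03). The chaperone genes Dnajb9 (1.72-fold, adjusted p = 0.0476, with the block 0.00270) and Hspa5 (1.57-fold, adjusted p = 0.0826, with the block 0.00281) were higher, and so was Ddit4 (2.38-fold, adjusted p = 0.0634, with the block 0.00689). Chac1, a CHOP and ATF4 target that breaks down glutathione, was 2.34-fold lower (adjusted p = 0.0586, with the block 0.00440), and with the block Trib3 fell 1.40-fold (adjusted p = 0.0141) and Herpud1 1.72-fold (adjusted p = 0.00263). Atf4 itself differed by 0.14. The call of Dnajb9 with 1 mean per group held in 1 of 9 fits that left out 1 array.

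Of 10 tested acute phase genes that C/EBPβ and C/EBPδ drive, Ccl2 fell (2.56-fold, adjusted p = 0.0146, lost without scrambled or vehicle replicate 3) and none rose; with the block 5 rose and 1 fell, and the list median was 0.58. The cytokine gene Il6 stood at 9.29, 9.27 and 7.89 with scrambled siRNA and IBMX/Dex, against 8.25, 6.88 and 6.44 with vehicle. These groups overlapped, and vehicle replicate 3 was below the filter. Leaving out 1 array gave Il6 log2 differences between 1.26 and 2.16. With all arrays Il6 was 3.10-fold higher (adjusted p = 0.115, with the block 0.00270) and the chemokine gene Cxcl1 1.83-fold (adjusted p = 0.0971, with the block 0.00154). With CD24 siRNA these genes were 1.99-fold and 1.40-fold above the shared vehicle arrays. No gene of any list passed between CD24 siRNA and scrambled siRNA in either fit.

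Markers of the cells themselves moved with treatment. The receptor gene Pdgfrb, a marker of pre-adipocytes, fell 3.15-fold (adjusted p = 0.00154) with scrambled siRNA and IBMX/Dex. Pdgfra fell 2.05-fold (0.0185, lost without scrambled replicate 1 or 3 or vehicle replicate 2 or 3). With the block 5 of the 12 tested markers of this list fell and none rose, where 11.4% of all genes fell and 11.9% rose. The sum of the 13 pre-adipocyte and fibroblast markers on the linear scale was 42272 to 45746 on the scrambled arrays and 43607 to 45294 on the CD24 siRNA arrays, against 51252 to 54574 on the vehicle arrays. The 8 macrophage and myeloid markers, a cell type rich in C/EBP factors, summed to 1098 to 1764, 1166 to 1582 and 989 to 1436 for the same groups, which overlapped; of the 5 above the filter none passed by group means, and with the block Cd14 rose 1.45-fold (adjusted p = 0.0230) and Lyz2 fell 1.97-fold (0.0430). Of the markers of skeletal muscle, Des fell 1.62-fold (adjusted p = 0.0195), and none of the 4 tested markers of endothelial, epithelial, bone and cartilage cells passed in either fit. The 5 mature adipocyte markers summed to 715 to 1558 on the scrambled arrays and 579 to 1335 on the CD24 siRNA arrays, against 754 to 1617 on the vehicle arrays, with overlap. The part of these shifts in the values of the 6 genes was not tested.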

How the data were processed

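Expression was measured on 9 single-colour arrays of 3T3-L1 RNA (250 ng each). The deposited table holds log2 values; RMA and the oligo package are named in the submitters' processing notes. Their versions and the set of arrays normalized together were not given in the sources used here. RMA evens out array distributions and compresses differences of dim probe sets. The values were used as deposited. Genes were named from the platform table: 23521 of 41345 probe sets had 1 symbol, and 0 symbols changed against RefSeq (GRCm38.p6, 23328 matched). For each gene the probe set with the highest mean was kept, and 12630 genes passed the filter (at least 3 of 9 values of 6.51 or more).

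Differences were fitted with limma 3.58.1 in R 4.3.3 (lmFit, eBayes, all 9 arrays, 1 mean per group), two-sided, with p-values adjusted by Benjamini-Hochberg across the tested genes at a threshold of 0.05. The code of the fit was run on simulated data with known differences. The outcome of that run is not reported here, and no result above rests on it. Groups and replicate numbers came from the titles. Deviations from group means correlated at 0.377 to 0.732 between same-numbered arrays and at most 0.116 otherwise, and 9 of 9 arrays correlated best with their own number, and samples were therefore treated as paired by number in the blocked fits. The members and lists were chosen with earlier results of these data known. Genes named from a list were taken from the 4 of smallest p in scrambled siRNA against vehicle. Not all of these were named for every list: for example Crebbp, Ncoa6, Ppargc1a and Prkaca were left out. Further genes (Zfp467, Trib3, Herpud1, Stat3, Klf4, Egr2, Fabp4 and Atf4) were added after their values were seen. Correlated genes are the 3 highest and the 1 lowest. Figures were drawn with matplotlib 3.10.9. The number of arrays limits the precision: the median 95% interval extended 0.34 log2 units to either side, or 0.25 with the block.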

Additional observations from a re-analysis of the deposited data

How the results depend on the processing

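With 1 mean per group, 876 genes passed for scrambled siRNA and 840 for CD24 siRNA against vehicle, with 0 of 5 tested members in each. With the replicate block these became 2942 genes and 3 members, and 2831 genes and 4 members. Added after the data were seen, other choices with the block gave 2299 genes with 2 members and 2062 with 2 (no filter), 3545 with 3 and 3447 with 4 (quantile normalization), 2507 with 3 and 2379 with 3 (array medians) and 3045 with 3 and 2883 with 4 (intensity trend). Fitting the compared groups alone gave 389 and 461 genes. Leaving out 1 array or 1 replicate number, with or without the block, gave 65 to 2924 genes and 0 to 3 members for scrambled siRNA, and 60 to 2647 genes and 0 to 4 members for CD24 siRNA; the lowest counts came from fits with fewer arrays and no block. Without the block, Cebpd was the member that passed in any such fit (CD24 siRNA against vehicle, without scrambled replicate 1 or vehicle replicate 2, adjusted p = 0.0418 and 0.0337). No member's difference that passed changed sign in these fits, and the cause of the calls gained or lost was not tested. CD24 siRNA against scrambled siRNA gave 0 genes and 0 members in each of these fits. The mean of probe sets and the least bright probe set leave the members as they are, since each has 1 probe set. Cebpa was tested only without a filter.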
